A study of Homo sapiens with 8 samples.

Results

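The 7 genes described here encode CTCF and the core of the cohesin machinery: CTCF, RAD21, SMC1A, SMC3, STAG1, STAG2 and NIPBL. They were picked by the gene symbol in the deposited count tables, as proteins of chromatin loop anchors that share sites with the topoisomerase TOP2B. Each of the 7 was found once among 18638 RefSeq gene models, in all 8 libraries. The assay was factory-seq, which reads nascent RNA: nuclei are treated with DNase I and the transcripts held at sites of transcription are then released with caspases and sequenced. Levels are given as counts per 1000000 (CPM) after scaling by TMM, a method that sets libraries to a common centre.

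Both cell lines are established human colorectal cancer lines. The DLD-1 cells (genotype DLD-1-mAID-mClover-POLR2A, with Tet-OsTIR1) carried an auxin-inducible degron on RPB1, the catalytic subunit of RNA polymerase II encoded by POLR2A, and were either untreated or given auxin (n = 2 libraries per group). The HCT116 cells of both groups carried the degron on TOP2A (TOP2A-mAID). One group was labelled untreated and the other carried in addition the label TOP2B-/- (n = 2 per group). Titles name this second group as control, whereas its treatment field reads auxin for 14 h and the headers of its count columns read aux. A difference in genotype and one in auxin, which acts on the TOP2A degron, can therefore not be told apart in HCT116. Per the labels, doxycycline for 24 h induced TIR1 before auxin was added at 500 µM for 14 h. The sources used here do not say whether untreated cells received doxycycline or whether a line is 1 clone. Nothing says that libraries of a group came from separate cultures, so the p-values measure the spread between these libraries, which may be technical.

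Cohesin is a ring-shaped complex that extrudes loops of chromatin and also holds sister chromatids together. SMC1A and SMC3 form the arms of the ring, RAD21 closes it, and either STAG1 or STAG2 binds RAD21 as an accessory subunit. NIPBL loads cohesin on DNA and drives loop extrusion. CTCF, a zinc finger protein, binds its DNA motif and stops extruding cohesin there, which sets the anchors of loops and the borders of domains. TOP2B cuts and religates both DNA strands and is found at many of the same anchors.

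Upstream sequence was available from RefSeq (GRCh38.p14) for 6 of the 7 genes, RAD21 not among them. Those of SMC1A and SMC3 are shown because these partner subunits differed most in their change in DLD-1, and that of STAG1 because it carries letters of the CTCF motif. Each ends at the base before the start of the counted gene model and is read 5′ to 3′ on the strand of the gene. Capitals mark GC boxes (GGGCGG on either strand) and the CTCF core searched for (on either strand, CCA, then AG, then GGC, each parted from the next by 2 bases of any kind).
SMC1A (chrX:53422729-53422978, minus strand): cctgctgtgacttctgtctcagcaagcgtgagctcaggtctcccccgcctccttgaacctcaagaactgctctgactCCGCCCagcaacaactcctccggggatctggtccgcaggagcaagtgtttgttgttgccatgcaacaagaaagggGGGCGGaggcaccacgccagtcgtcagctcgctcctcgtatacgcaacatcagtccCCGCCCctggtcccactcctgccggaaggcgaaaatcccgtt
SMC3 (chr10:110567445-110567690, plus strand): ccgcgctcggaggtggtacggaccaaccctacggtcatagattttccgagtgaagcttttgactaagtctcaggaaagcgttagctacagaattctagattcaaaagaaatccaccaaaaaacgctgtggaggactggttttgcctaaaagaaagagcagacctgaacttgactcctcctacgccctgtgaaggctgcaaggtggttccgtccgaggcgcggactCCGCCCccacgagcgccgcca
STAG1 (chr3:136752404-136752628, minus strand): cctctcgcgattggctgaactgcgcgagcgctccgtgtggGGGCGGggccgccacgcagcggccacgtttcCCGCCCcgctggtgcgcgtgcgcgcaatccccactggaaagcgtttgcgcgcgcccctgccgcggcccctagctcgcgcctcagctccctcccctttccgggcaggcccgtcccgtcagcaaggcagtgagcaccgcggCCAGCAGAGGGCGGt
SMC1A carried 3 GC boxes and SMC3 carried 1. In STAG1 the CTCF core at -40 from the RefSeq start, CCAGCAGAGGGC, overlapped a GC box at -32, and a second core lay at 19 past that start. Over all 35116 RefSeq windows of 300 bases, 2.41% held the CTCF core and 45.0% a GC box. None of the windows of CTCF, NIPBL, SMC1A, SMC3 and STAG2 held the core. The letters are a description of these windows, not evidence of binding.

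Total counts ran from 10739622 to 14183633 in the DLD-1 auxin libraries, 36906755 to 62626875 in their controls and 32129400 to 36491540 in HCT116. A set of genes that the other line left silent gave a background density, which corresponded to 39.5% and 59.5% of all counts in the auxin libraries, 2.24% and 9.02% in the DLD-1 controls and 0.27% to 3.04% in HCT116. Colon epithelial markers summed to 3614 to 6836 CPM in DLD-1 and 2453 to 4261 CPM in HCT116, where VIL1 (0.23 to 0.82 CPM) and CDX2 (4.22 to 5.55 CPM) were low. Of these 7 epithelial markers 3 were called lower after auxin in DLD-1 (CDX2 at -3.51, KRT18 at -1.72 and CLDN7 at -1.18 in log2), 0 higher. Called lower were also 35.0% of all genes tested. Not called were KRT8 (-0.41) and CDH1 (-0.29), below 0, and EPCAM (0.38) and VIL1 (0.60), above 0. The median log2 fold change of this list was -0.41, and 0.89 with background subtracted. In HCT116, 6 of the 7 epithelial markers lay below 0 in the TOP2B-/- group, where the median of all genes tested was 0.03. CDH1 was called (-0.69, edgeR adjusted p 0.026), as were 1.66% of all genes tested in the lower direction. With the replicate number as a block, 0 genes were called. Genes of leukocytes, endothelium and fibroblasts (PTPRC, CD3E, PECAM1, VWF, COL1A1, COL3A1) summed to 34.9 to 52.1 CPM in HCT116, mostly from COL1A1, with CD3E at 0 in 1 control. They summed to 13.1 and 34.7 CPM in DLD-1 controls and to 184.4 and 182.5 CPM after auxin, where 5 of the 6 were called higher, as were 32.2% of all genes tested. After auxin their median was 0.64 and 0.65 times the background density, and PECAM1 was highest, at 4.81 and 2.49 times. The part of these markers in the results was not tested, and that of background only through the background-subtracted values given where stated.

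The genes differ widely in span, which matters because reads were counted over introns as well as exons. On GRCh38, RAD21 spans 28.9 kb of the minus strand (chr8:116845934-116874866) and SMC3 36.9 kb of the plus strand (chr10:110567691-110604634). SMC1A spans 48.6 kb of the minus strand (chrX:53374149-53422728), CTCF 76.8 kb of the plus strand (chr16:67562407-67639185) and STAG2 142.1 kb of the plus strand (chrX:123960560-124102655). NIPBL spans 189.1 kb of the plus strand (chr5:36876759-37065819) and STAG1 415.2 kb of the minus strand (chr3:136337157-136752403). None of the 7 overlapped another gene model of the tables. Counted length was 73 bp short of the span in RAD21 and 93 bp short in SMC1A, and equalled it in the other 5 genes.

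Per kb of span, RAD21 had the highest level of the 7 genes in control cells of both lines and STAG1 the lowest. In HCT116 controls the order was RAD21 (10.3 ± 0.80 CPM per kb), SMC3 (4.84 ± 0.28), SMC1A (3.21 ± 0.21), NIPBL (1.74 ± 0.036), STAG2 (1.66 ± 0.023), CTCF (1.25 ± 0.011) and STAG1 (0.99 ± 0.022, SD, n = 2). No neighbours in that order overlapped between libraries. DLD-1 controls had the same order, from RAD21 (7.87 ± 0.78 CPM per kb) over SMC3 (6.81 ± 0.20) and SMC1A (4.21 ± 0.70) to CTCF (2.16 ± 0.10) and STAG1 (1.27 ± 0.015, SD, n = 2). There NIPBL (3.02 ± 0.066 CPM per kb) and STAG2 (2.88 ± 0.19) overlapped and could not be ordered. The genes of the accessory subunits differed in nascent reads per kb. STAG1 had 0.43 and 0.46 times the reads per kb of STAG2 in DLD-1 controls and 0.62 and 0.59 times in HCT116 controls. STAG1 is also the longer gene, and levels of mature mRNA or protein were not measured. The order of levels followed the order of span from the shortest to the longest gene except that CTCF, STAG2 and NIPBL stood in the reverse order. Exonic and intronic reads were not counted apart.

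**Figure D1:**
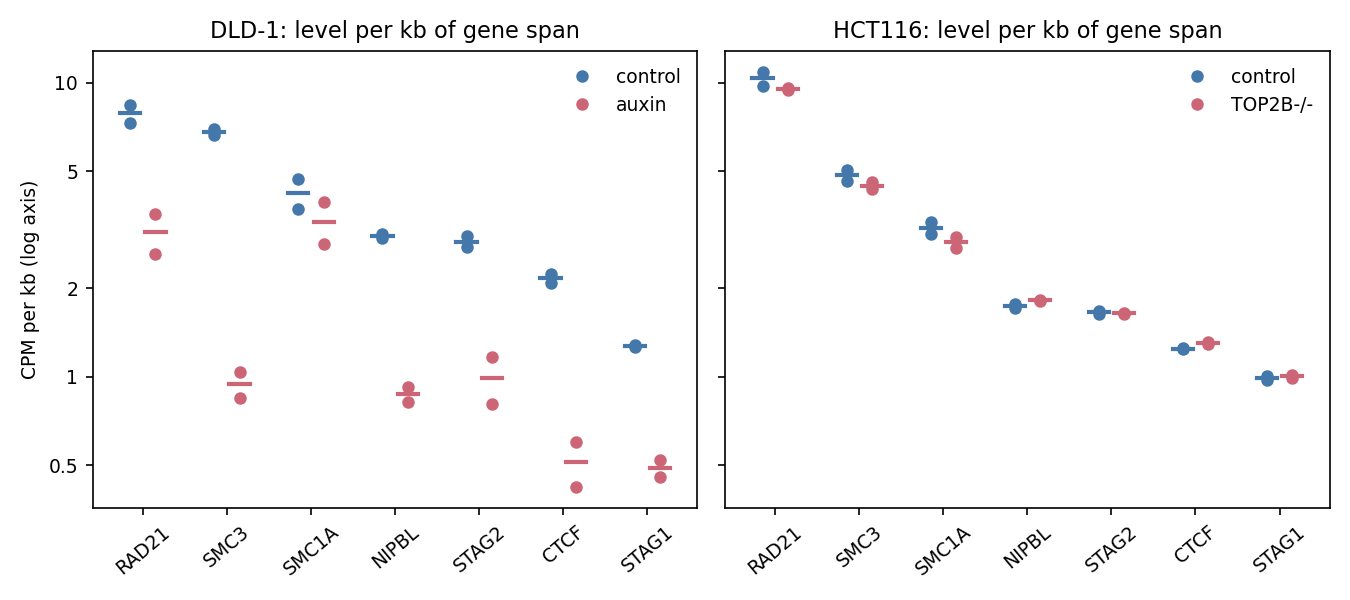
Level of each gene in CPM per kb of gene span (log axis) in DLD-1 (left) and HCT116 (right), with 1 point per library and a bar at the group mean (n = 2). RAD21 is highest in control cells of both lines, the groups of HCT116 lie almost on top of each other, and after auxin SMC1A (3.37 CPM per kb) stands level with RAD21 (3.10) in DLD-1.

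The question in DLD-1 was how nascent transcripts of these genes differed between cells with and without RPB1 depletion. Of the 7 genes, 6 fell after auxin and SMC1A was not called, in edgeR's quasi-likelihood test at an adjusted p of 0.05. This count stands against a high background, as 67.3% of 17625 genes tested were called and 35.0% were called lower. The median log2 fold change of the 7 genes was -1.55, against -0.06 for all genes tested. CPM is a share of each library, so a value below 0 is a fall relative to other transcripts, and less RNA per cell cannot be told apart from fewer cells that transcribe the gene. With library totals alone the median of all genes was 0.57 and that of the 7 genes -0.91, with the same 6 called. The split of all called genes then was 7544 higher and 3377 lower, against 5678 higher and 6177 lower with TMM, and with upper-quartile scaling 7070 higher and 4038 lower.

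Of the ring subunits, SMC3 fell the most. It had 256.8 and 246.1 CPM in the controls and 38.3 and 31.4 CPM after auxin. The groups were far apart and the libraries of each group lay close together. The log2 fold change came to -2.85 (SE 0.19, edgeR adjusted p 0.0042), or 7.21-fold lower, and lay at the 0.96 percentile of all log2 fold changes. SMC1A, the partner that pairs with SMC3 in the ring, had 228.8 and 180.4 CPM in the controls and 190.2 and 137.1 CPM after auxin. Its groups overlapped. SMC1A had a log2 fold change of -0.32 (SE 0.24, edgeR adjusted p 0.275), with a 95% interval of -0.95 to 0.31, an interval that holds both a fall and a small rise. RAD21, the subunit that closes the ring, had 243.5 and 211.6 CPM in the controls and 103.3 and 75.9 CPM after auxin. RAD21 had a log2 fold change of -1.34 (SE 0.22, edgeR adjusted p 0.010), and without auxin replicate 2 it was -1.14 and no longer called (edgeR adjusted p 0.051).

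Both accessory subunits fell, by amounts that differed between the fit to counts and the refit to background-subtracted counts. STAG2 went from 428.4 and 391.2 CPM to 165.6 and 114.9 CPM, a log2 fold change of -1.55 (SE 0.24, edgeR adjusted p 0.0090). STAG1 went from 532.4 and 523.6 CPM to 189.7 and 215.7 CPM, a log2 fold change of -1.38 (SE 0.17, edgeR adjusted p 0.0058). In both genes every auxin library lay below every control. With background subtracted and the libraries scaled anew, the log2 fold changes were -0.89 for STAG2 and -1.79 for STAG1.

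The loader NIPBL had 562.2 and 579.9 CPM in the controls and 174.2 and 155.4 CPM after auxin. NIPBL was thus 3.47-fold lower, at a log2 fold change of -1.79 (SE 0.17, edgeR adjusted p 0.0042). CTCF had 171.5 and 160.5 CPM in the controls and 32.4 and 46.2 CPM after auxin. After SMC3 this was the largest fall of the 7 genes from counts, with a log2 fold change of -2.08 (SE 0.23, edgeR adjusted p 0.0048), or 4.23-fold lower. Background made up 67.3% and 67.5% of its auxin reads, and with it subtracted the fall of CTCF (-2.26) and that of SMC3 (-2.22) were about equal. CPM did not overlap between groups in 6 of the 7 genes, all lower after auxin. Over all genes tested, 46.3% lay lower without overlap, and 91.0% had no overlap in either direction.

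**Figure D2:**
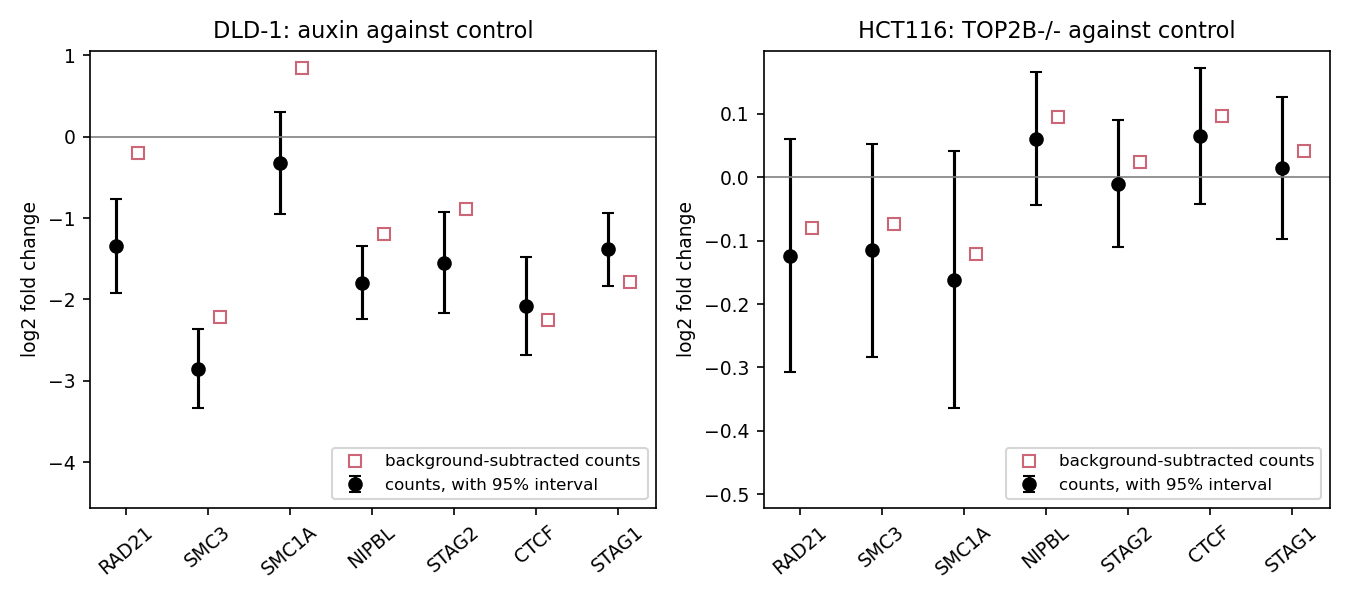
Log2 fold change of each gene in DLD-1 (auxin against control, left) and HCT116 (TOP2B-/- against control, right), on y axes of different range. Filled points are edgeR estimates with 95% intervals (n = 2 per group) and open squares are estimates from background-subtracted counts without intervals. In DLD-1 all intervals but that of SMC1A lie below 0, and in HCT116 all 7 intervals include 0.

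The background density moved with these results and took different shares of the 7 genes. In the auxin libraries CTCF had 558 and 636 reads, of which the background estimate made up 67.3% and 67.5%. STAG1, the longest gene, had 3268 and 2967 reads, with 62.2% and 78.3% from background. These genes were at 1.48 and 1.48 times (CTCF) and 1.61 and 1.28 times (STAG1) the background density, while 10% of silent genes reached at least 1.71 and 1.46 times it. The reads of CTCF and STAG1 after auxin therefore lay within or near the range of silent genes. For RAD21 the shares were 7.94% and 15.5%, and for SMC1A 7.24% and 14.4%, at 13.8 and 6.96 times the background. SMC3 (27.4% and 47.8%), STAG2 (24.4% and 50.3%) and NIPBL (30.8% and 49.5%) were in between. In the controls no gene had more than 7.55% of its reads from background.

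**Figure D3:**
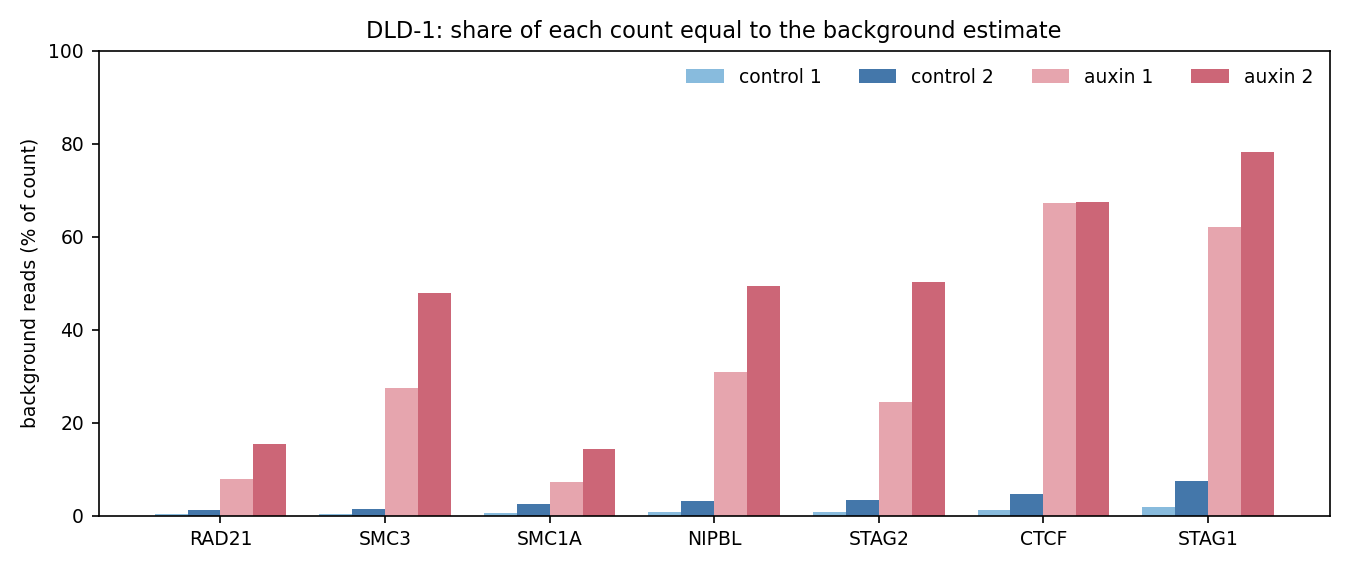
Share of each gene's count that equals the background estimate in the 4 DLD-1 libraries (y axis in percent of the count, 1 bar per library). Shares stay at or under 7.55% in controls, and after auxin run from 7.24% in SMC1A to 78.3% in STAG1.

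Once this background was subtracted and the counts refitted, 5 of the 7 genes were called lower and 1 higher, where 59.8% of the 14355 genes then tested were called, 32.1% lower and 27.7% higher. CTCF (-2.26), SMC3 (-2.22), STAG1 (-1.79), NIPBL (-1.20) and STAG2 (-0.89) fell, with edgeR adjusted p from 0.0021 to 0.025. RAD21 had a log2 fold change of -0.20 and was not called (edgeR adjusted p 0.093). SMC1A was called higher, at 0.85 (edgeR adjusted p 0.0077), and thus turned from its value of -0.32. SMC1A also had positive values that were not called with library totals alone (0.32), upper-quartile scaling (0.15) and a mean CPM of at least 5 (0.06). Its direction after auxin therefore differed between settings of scaling, filter and background and was not settled. The refit on subtracted counts also scaled the libraries anew. At the scaling of the first fit, subtracted levels of RAD21 went from 7.81 CPM per kb in the controls to 2.75 after auxin. Those of SMC1A went from 4.15 to 3.02 and those of STAG2 from 2.82 to 0.64. The part of the new scaling in the refitted values was not tested.

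Ratios between genes of the same library need no scaling between libraries. SMC1A had 0.68 and 0.56 times the reads per kb of SMC3 in DLD-1 controls, and 3.78 and 3.32 times after auxin. The log2 ratio thus shifted by 2.53, and by 3.07 with background-subtracted counts. Both auxin libraries lay above both controls, and the exact two-sided permutation test gave p = 0.333, the smallest that 2 against 2 libraries allow. This pair was chosen after its values were seen. In HCT116 the same ratio stayed between 0.63 and 0.67 in all 4 libraries. The STAG1 to STAG2 ratio went from 0.43 and 0.46 in DLD-1 controls to 0.39 and 0.64 after auxin, with a shift of 0.18 in log2 (exact permutation p = 1). With background-subtracted counts it was 0.20 and 0.28 after auxin, a shift of -0.87 (exact permutation p = 0.333), so its direction depended on background.

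**Figure D4:**
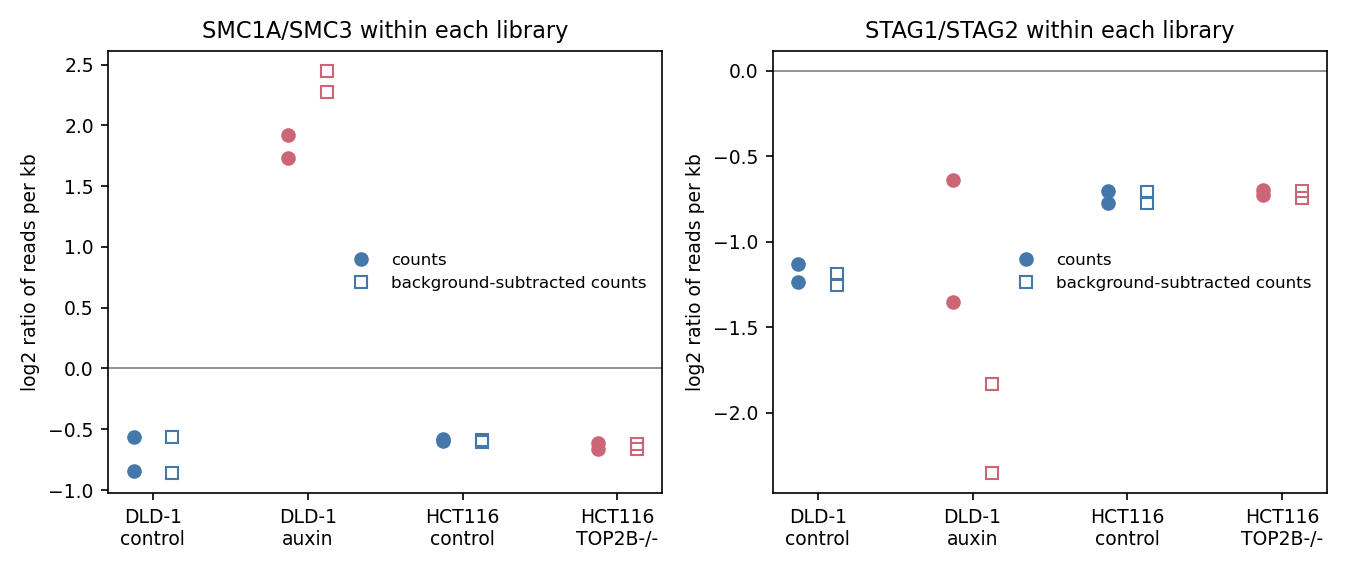
Log2 ratio of reads per kb within each library for SMC1A over SMC3 (left) and STAG1 over STAG2 (right), as filled circles from counts and open squares from background-subtracted counts (2 libraries per group). SMC1A over SMC3 lies below 0 everywhere except after auxin in DLD-1 (1.73 and 1.92 from counts), and STAG1 over STAG2 lies below 0 in all 8 libraries.

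After auxin the order of levels per kb also differed from that of the controls. SMC1A (3.37 ± 0.77 CPM per kb) and RAD21 (3.10 ± 0.67) overlapped at the top. STAG2 (0.99 ± 0.25), SMC3 (0.94 ± 0.13) and NIPBL (0.87 ± 0.070) overlapped with their neighbours. CTCF (0.51 ± 0.13) and STAG1 (0.49 ± 0.044, SD, n = 2) overlapped at the bottom. SMC3, next after RAD21 in the controls, could thus not be ordered against STAG2 or NIPBL. Of the summed reads per kb of the 7 genes, SMC1A took 34.1% and 31.2% after auxin against 15.9% and 13.8% in the controls, and SMC3 9.02% and 9.40% against 23.5% and 24.8%.

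Genes that load, release, acetylate or cleave cohesin were examined as a list of 11 (MAU2, WAPL, PDS5A, PDS5B, CDCA5, ESCO1, ESCO2, HDAC8, SGO1, ESPL1 and PTTG1). In DLD-1, 9 were called lower, 0 higher and 2 were not called, with a median log2 fold change of -1.71 (-0.90 with background subtracted), where 35.0% of all genes tested were called lower. The 2 largest falls were those of MAU2, the partner of NIPBL in the loader, and of HDAC8, the deacetylase that recycles SMC3. MAU2 had 83.8 and 68.4 CPM in the controls and 13.2 and 12.5 CPM after auxin, a log2 fold change of -2.56 (SE 0.20, edgeR adjusted p 0.0042). HDAC8 had 426.9 and 396.7 CPM in the controls and 71.3 and 79.3 CPM after auxin, a log2 fold change of -2.45 (SE 0.17, edgeR adjusted p 0.0042). After auxin both were at background, with MAU2 at 1.23 and 0.81 times and HDAC8 at 1.03 and 0.80 times its density, so the sizes of their falls depended on it. The members not called were CDCA5 (-0.47), which encodes the cohesion factor sororin, and the acetyltransferase gene ESCO2 (-0.23).

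Of 13 tested genes of the other SMC complexes, condensin and SMC5/6, 12 were called lower in DLD-1, where 35.0% of all genes tested were. Their median was -1.35, or -1.05 with background subtracted. The largest change was that of SMC4, a condensin ATPase, from 454.8 and 456.0 CPM to 110.7 and 77.3 CPM (log2 fold change -2.28, SE 0.24, edgeR adjusted p 0.0045). Of 7 genes of DNA-binding factors found at anchors and of type II topoisomerases, 5 were called lower and 1 higher, where 35.0% and 32.2% of all genes tested were, and their median was -1.29 (-0.36 with background subtracted). PATZ1 had the largest change, from 46.9 and 34.6 CPM to 10.9 and 11.9 CPM (log2 fold change -1.84, SE 0.25, edgeR adjusted p 0.0069), and lost its call without auxin replicate 1 or 2 (-1.68 and -1.90, edgeR adjusted p 0.076 and 0.058). The gene called higher, named after its value was seen, was ZNF143, which encodes a zinc finger factor, from 40.3 and 45.3 CPM to 98.5 and 82.1 CPM (log2 fold change 1.08, SE 0.18, edgeR adjusted p 0.011).

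The germline paralogues SMC1B, REC8, RAD21L1, STAG3 and CTCFL went the other way from the 7 genes in DLD-1, with 4 of 5 called higher and a median of 2.55. Called higher were also 32.2% of all genes tested. RAD21L1, a meiotic counterpart of RAD21, had 1.24 and 2.39 CPM in the controls and 11.3 and 14.3 CPM after auxin (log2 fold change 2.83, SE 0.47, edgeR adjusted p 0.011). In the auxin libraries these 5 genes had 0.26 to 1.40 times the background density, and none exceeded the level that 10% of silent genes reached. The call of RAD21L1 was lost without auxin replicate 1 or 2 (log2 fold changes 3.09 and 2.65, edgeR adjusted p 0.076 and 0.096) or with background-subtracted counts (4.85, edgeR adjusted p 0.079), although its fold change stayed large.

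**Figure D5:**
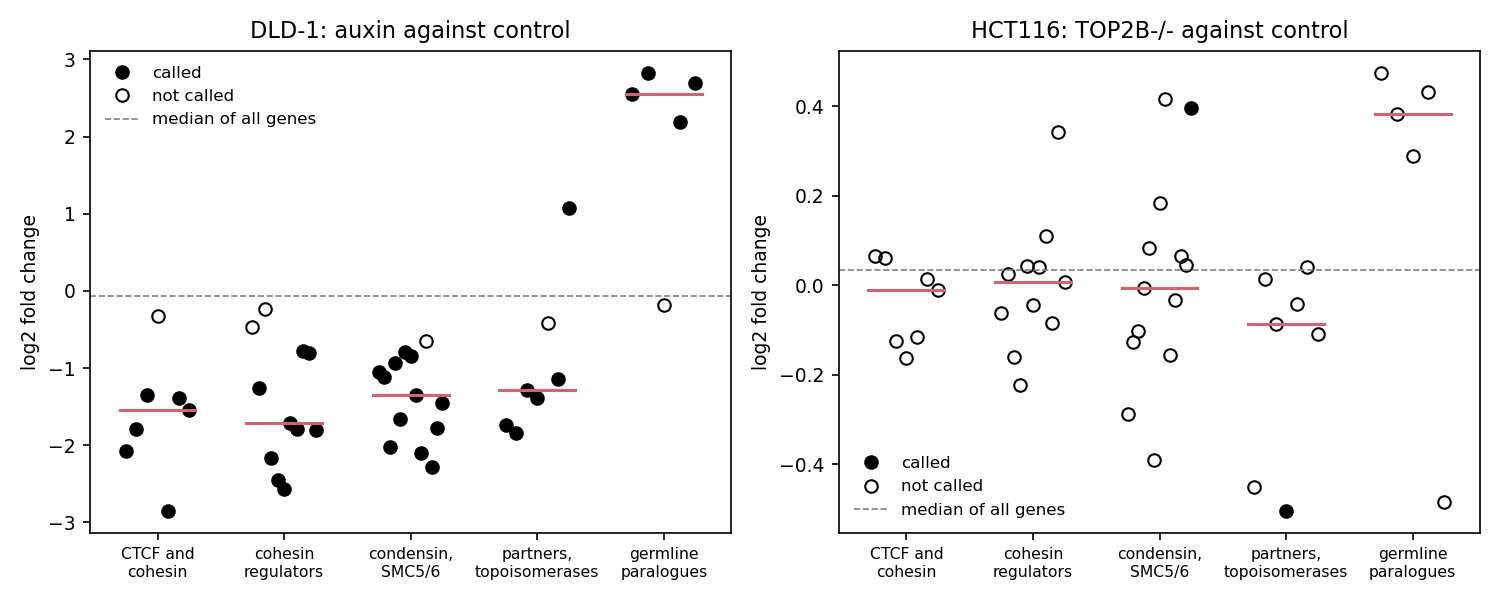
Log2 fold changes of the 5 gene lists in DLD-1 (left) and HCT116 (right), on y axes of different range, with 1 point per tested gene, filled where called by edgeR, a red bar at each list's median and a dashed line at the median of all genes tested. In DLD-1 the first 4 lists have medians from -1.71 to -1.29 and the germline paralogues 2.55, while in HCT116 only SMC6 and TOP2B are called.

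In HCT116 the question was whether transcripts of proteins that share anchors with TOP2B differed in the group labelled TOP2B-/-. None of the 7 genes was called by edgeR, by which 3.41% of 15273 genes tested were called, 1.75% higher and 1.66% lower. None had an unadjusted p under 0.05, and DESeq2 called 0 of the 7, with 1 at an unadjusted p under 0.05. Their median log2 fold change was -0.01, against 0.03 for all genes tested. The 95% intervals of the 7 genes ran from -0.36 at the lowest to 0.17 at the highest. TOP2B itself was called lower, from 185.7 and 191.7 CPM to 134.6 and 131.6 CPM (log2 fold change -0.50, SE 0.041, edgeR adjusted p 0.027). Without TOP2B-/- replicate 1 or 2 it stood at -0.56 and -0.49 and was not called (edgeR adjusted p 0.210 and 0.302), in fits that called 0 genes of the whole table.

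CTCF had 96.3 and 95.1 CPM in HCT116 controls and 99.5 and 100.8 CPM in the group labelled TOP2B-/-, a log2 fold change of 0.07 (95% interval -0.04 to 0.17). NIPBL had 334.3 and 324.6 CPM in the controls and 344.4 and 343.2 CPM in the other group, a log2 fold change of 0.06 (-0.04 to 0.17). In both, the libraries labelled TOP2B-/- lay above the controls by a few percent, and neither was called (edgeR adjusted p 0.400 and 0.420). Without control replicate 2 both were slightly below 0 (-0.01 and -0.03).

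The ring subunits had the lowest values of the 7. SMC1A had 148.8 and 163.1 CPM in the controls and 133.6 and 145.3 CPM in the group labelled TOP2B-/-, a log2 fold change of -0.16 (-0.36 to 0.04). RAD21 had 283.0 and 315.8 CPM against 276.6 and 273.1 CPM, at -0.12 (-0.31 to 0.06). SMC3 had 171.5 and 185.9 CPM against 160.8 and 169.2 CPM, at -0.12 (-0.28 to 0.05). In each of these the groups did not overlap and control 2 was the highest library. With CTCF and NIPBL this made 5 of 7 genes without overlap, 3 of them lower, where 55.3% of all genes tested had no overlap and 27.6% lay lower without it. Without control replicate 1, SMC1A stood at -0.23, RAD21 at -0.21 and SMC3 at -0.18.

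The accessory subunits had the values closest to 0 in this fit, though not without control replicate 2 or without TOP2B-/- replicate 1. STAG1 had 419.1 and 406.4 CPM in the controls and 422.6 and 411.7 CPM in the group labelled TOP2B-/-, a log2 fold change of 0.02 (-0.10 to 0.13). STAG2 had 233.0 and 237.7 CPM against 234.4 and 233.1 CPM, at -0.01 (-0.11 to 0.09). In both genes the groups overlapped, and their ratio of reads per kb lay between 0.59 and 0.62 in all 4 libraries. Background made up at most 2.63% of the reads of any of the 7 genes in HCT116. With it subtracted, 0 of the 7 were called, while 16.9% of 13573 genes were, 8.50% higher and 8.36% lower. The order of levels per kb was the same in both groups.

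In HCT116, where 3.41% of all genes tested were called (1.75% higher and 1.66% lower), 0 of the 11 cohesin regulators were. SGO1 (SGOL1 in the tables), which protects centromeric cohesin, had the smallest p, from 23.9 and 24.3 CPM to 29.0 and 32.1 CPM (log2 fold change 0.34, SE 0.089, edgeR adjusted p 0.134), and was called with background-subtracted counts (0.38, edgeR adjusted p 0.035). Of condensin and SMC5/6 genes, SMC6 was called higher, from 135.6 and 138.7 CPM to 182.2 and 178.8 CPM (log2 fold change 0.40, SE 0.039, edgeR adjusted p 0.032). In the same 2 fits without a TOP2B-/- library it stood at 0.34 and 0.41 and was not called (edgeR adjusted p 0.246 and 0.352). Of the anchor factors and topoisomerases TOP2B alone was called. Of the germline paralogues 0 were called, and their summed level was 5.64 to 7.63 CPM.

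The genes with the pattern most like that of CTCF were COG2, UPRT and NFYC, at root-mean-square distances of 0.043, 0.048 and 0.053 in log2 CPM centred within each line over the 8 libraries. Of 10613 genes compared, NIPBL was 673rd, with a distance of 0.20, STAG1 1482nd and SMC1A 7134th. Closest to the mean pattern of RAD21, SMC1A and SMC3 were THYN1, HPS4 and DDX52 (0.020, 0.021 and 0.035). Of 10611 genes, STAG2 was 79th (0.067), NIPBL 1362nd, STAG1 1854th and CTCF 5003rd. The 3 averaged genes differed from each other in DLD-1 (log2 fold changes -1.34, -0.32 and -2.85), so their mean is the pattern of none of them. These distances rest mainly on DLD-1, where the 7 genes differed between groups, and the 8 libraries differ in depth and background.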

How the data were processed

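The authors deposited raw read counts per RefSeq gene model, counted over the gene span in 1 table per cell line. The submitters' processing notes name STAR, DESeq2 and the build hg38, and the tables carry the name irnaseq. The sources used here give no versions, settings or use of strand. The supplied paper describes another experiment and supplied no design or value. The authors' tables of changed genes hold fold changes, p-values and normalized values and were not used.

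Both comparisons were fitted separately, on 4 libraries each (2 residual degrees of freedom), with edgeR 4.0.16 in R 4.3.3, by filterByExpr, TMM and the quasi-likelihood test, two-sided, with Benjamini-Hochberg adjustment over all genes tested at 0.05. Standard errors and intervals came from the F statistic and its degrees of freedom. DESeq2 1.42.0 and other settings were alternatives. Fits that leave out 1 library take the spread of the remaining one from the group with both. The script was tested on simulated data. Background density was the median count per base over 3111 gene models of at least 5000 bp, the lowest 20% per chromosome (without Y) in the controls of the other line. Background-subtracted counts were floored at 0 and refitted with the filter and the TMM scaling computed anew. Replicates differed by more than sampling noise (chi-square per degree of freedom 10.3 to 75.6). Intervals cover no other source of error than the spread between libraries.

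The genes, lists and settings were chosen with earlier results of these data known. Named were all 7 genes, of the regulators the 2 largest called changes per direction (or the smallest p where 0 were called), of each other list the largest called change, and the 3 closest patterns among genes that averaged 5 CPM or more in both lines (prior count 2). NSMCE3 was not analysed here.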

Additional observations from a re-analysis of the deposited data

How the results depend on the processing

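In DLD-1, 6 of the 7 genes were called lower under every setting tried except background subtraction (5 lower, 1 higher) and without auxin replicate 2 (5), and CTCF, SMC3, STAG1, STAG2 and NIPBL were called lower under all 13. Beside these counts, 35.0% of all genes tested were called lower from counts with TMM, and 32.1% from background-subtracted counts. With library totals alone 3377 of 17625 were, and with upper-quartile scaling 4038 of 17625. SMC1A had positive values with library totals alone (0.32), upper-quartile scaling (0.15), a mean CPM of at least 5 (0.059) and background-subtracted counts (0.85). The number of all genes called, 11855, ran from 2393 to 12732 when 1 replicate was left out, lowest without auxin replicate 1 (3165 without auxin replicate 2). The shift of the STAG1 to STAG2 log2 ratio was 0.18, ran from -0.17 (without auxin replicate 2) to 0.54 without 1 library and was -0.87 with background-subtracted counts.

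In HCT116, 0 of the 7 genes were called under every setting except without control replicate 1 (1), so leaving out 1 library gave 0 to 1. All genes called numbered 521, and 1849 with DESeq2, 1221 with a mean CPM of at least 5, 2289 with background-subtracted counts, 5 in the fit over all 8 libraries and 0 to 2519 without 1 replicate (0 without TOP2B-/- replicate 1 or 2, 2519 without control replicate 1). Log2 fold changes near 0 changed sign. Without 1 replicate, CTCF ran from -0.012 to 0.069, NIPBL from -0.028 to 0.077 and STAG1 from -0.075 to 0.034, each lowest without control replicate 2, and STAG1 was also below 0 (-0.047) without TOP2B-/- replicate 1. STAG2 was above 0 with library totals (0.013), upper-quartile scaling (0.033) and background-subtracted counts (0.024). The shift of the STAG1 to STAG2 log2 ratio was 0.025, from -0.011 (without control replicate 2) to 0.062 without 1 library. The cause of these changes was not tested.

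With the replicate number as a block, edgeR called 12963 genes in DLD-1, with the same 6 of the 7 lower, and 0 in HCT116 (2177 at an unadjusted p under 0.05), where SMC6 and TOP2B were then not called. Deviations of same-numbered libraries correlated at 0.56 in DLD-1 and -0.82 in HCT116, and the labels do not say what such libraries share. The crossed pairing, added after seeing the data, called 1808 genes in HCT116 and 0 of the 7. The 7 genes had at least 432 reads in every library. Depth and background both differed between the DLD-1 groups, and the part of depth was not tested. Background made up most of the auxin reads of CTCF and STAG1. The refit on subtracted counts, which also scaled the libraries anew, gave -0.20 for RAD21 (from -1.34) and 0.85 for SMC1A (from -0.32).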

Other observations

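In HCT116, 2 genes of the SMC5/6 complex had the largest positive values among condensin and SMC5/6 genes, and both were singled out after their values were seen. Beside SMC6 (log2 fold change 0.40), NSMCE2, the SUMO ligase subunit of the complex, went from 546.6 and 499.9 CPM to 711.4 and 685.9 CPM in the TOP2B-/- libraries. Its log2 fold change of 0.42 (SE 0.060) was not called, with an edgeR adjusted p of 0.056. The core ATPase partner SMC5 had 260.5 and 258.4 CPM against 263.2 and 272.8 CPM, a log2 fold change of 0.05 (SE 0.040, edgeR adjusted p 0.551).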
